A study of Mus musculus with 4 samples.

Results

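The genes described here are the nuclear-encoded genes of the mitochondrial respiratory chain and the ATP synthase. They were chosen by name, as the listed genes whose symbols begin with Nduf, Uqcr, Sdha to Sdhd, Atp5, or Cox4 to Cox8, without the rows on chromosome 13 and without pseudogenes. This rule took 85 of the 25965 genes in the table and left out 7 rows on chromosome 13 and 1 pseudogene. The rows left out on chromosome 13 are Sdha, Uqcrb, Uqcrfs1, Cox7c, Ndufs4, Ndufs6 and Ndufaf2. Complex II is therefore read without its flavoprotein Sdha, and complex III without its Rieske iron-sulfur protein Uqcrfs1. Of the 85, 37 belong to complex I, 5 to complex II, 6 to complex III, 17 to complex IV and 15 to complex V, and 5 lie outside the complexes. The 5 are Cox7a2l, Ndufa4l2, Atp5s, Atp5sl and Cox4nb. The last is taken by its older symbol only: it encodes a subunit of the endoplasmic reticulum membrane complex and no respiratory protein. Ndufa4 was counted in complex IV, where its protein resides, although it is named for complex I. Differences were read only for genes whose log2 CPM (CPM being reads relative to the total of the library) averaged 0 or more across the libraries, and 82 of the 85 passed, with Cox6a2, Cox8b and Cox8c below it.

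Complexes I and II pass electrons from NADH and succinate to ubiquinone, complex III passes them to cytochrome c, and complex IV, cytochrome c oxidase, passes them to oxygen. Complexes I, III and IV pump protons as they do so, and complex V, the ATP synthase, lets the protons return through a ring of c subunits and makes ATP in its F1 head. Most subunits are encoded in the nucleus, and in complexes I, III, IV and V they join subunits encoded in mitochondrial DNA. Several complex IV subunits have a second gene used in particular tissues.

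RNA-seq was performed on bulk total RNA of female FVB/CAST F1 mouse embryonic stem cells (mESCs), a line derived from FVB dams and CAST sires. The 4 libraries were undifferentiated cells at day 0 and cells at day 6 of differentiation that carried a non-silencing control hairpin (Nons), the hairpin Smarca4.4 or the hairpin Smarca4.6. Smarca4 encodes an ATPase of the BAF chromatin remodelling complex. The study asked what Smarca4 depletion does to X inactivation, and the respiratory genes were not its subject. Cells were kept in 2i medium and then weaned into DME HiHi medium, which leaves differentiation undirected, so that day 6 cells are a mixture. The 3 day 6 cultures received a virus carrying a short hairpin RNA on day 2 and puromycin on day 3. The day 0 library is labelled as a non-silencing control and was taken before transduction, so that the day 6 against day 0 difference holds differentiation, virus and selection together. Groups follow the sample titles, since the genotype label calls all 3 day 6 libraries, Nons included, a Smarcc knockdown, and the growth notes name reporter lines (Xmas) that the strain label does not.

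With a single library in each group, nothing below could be set against replicate spread, and no p-value is given. Intervals below are 95% intervals of counting error from the recovered reads, and they compare 2 libraries, not 2 conditions. Depth was between 18599402 and 47143727 reads. The targeted gene, Smarca4, was reduced with both hairpins, at log2 CPM values of 7.84 (Nons), 7.04 (Smarca4.4) and 7.44 (Smarca4.6), beside 7.93 for the day 0 cells. The cells are labelled female, yet Ddx3y, a gene of the Y chromosome, had 0 reads at day 0 and between 83 and 107 reads in the day 6 libraries, and the part of this in the values below was not tested. Of 12 pluripotency markers, 11 were at least 1.5-fold lower in Nons than at day 0, and the median difference over all 12 was -4.86. The sum over the 12 was 6296 CPM at day 0 and between 1032 and 1289 CPM at day 6. The remaining marker, Pou5f1, was 0.34 higher in Nons, with log2 CPM values of 9.50, 9.84, 9.45 and 9.94 in the library order given below. Pou5f1 made up most of each day 6 sum, which therefore says little about the other 11. In bulk RNA, fewer cells of a type and less RNA per cell cannot be told apart. In lists of values, the order is day 0, Nons, Smarca4.4 and Smarca4.6.

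Per kilobase of transcript, the median level at day 6 was highest in complexes IV and V and lowest in complex II, where 2 of 5 members are assembly factors. The median level in Nons was 5.48 log2 CPM per kilobase for complex I, 4.37 for complex II, 6.75 for complex III, 7.31 for complex IV and 7.12 for complex V. The highest member of all was Atp5b, the catalytic beta subunit of the F1 head, at 10.08, 9.87, 9.75 and 9.79. Atp5a1, the alpha subunit of the same head, followed at 9.08, 8.60, 8.48 and 8.54. By the mean of the 4 libraries the complex IV leaders were Cox4i1, the common form of subunit 4, at 8.19, 8.43, 8.20 and 8.35, and Ndufa4 at 7.85, 8.19, 8.03 and 8.27, although at day 0 Cox5a (8.67) and Cox8a (8.21) were above both. By the same mean the complex III leaders were Uqcrh, the hinge protein, at 6.96, 7.03, 7.07 and 7.40, and Uqcrc1, a core protein, at 7.52, 6.99, 6.91 and 6.999, although at day 0 Uqcr10 (7.37) was above Uqcrh. Sdhd, a membrane anchor, and Sdhb, the iron-sulfur subunit, led complex II, with 6.40 and 6.74 in Nons. The accessory subunits Ndufa7 and Ndufa6 led complex I, with 7.38 and 7.07 in Nons.

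**Figure D1:**
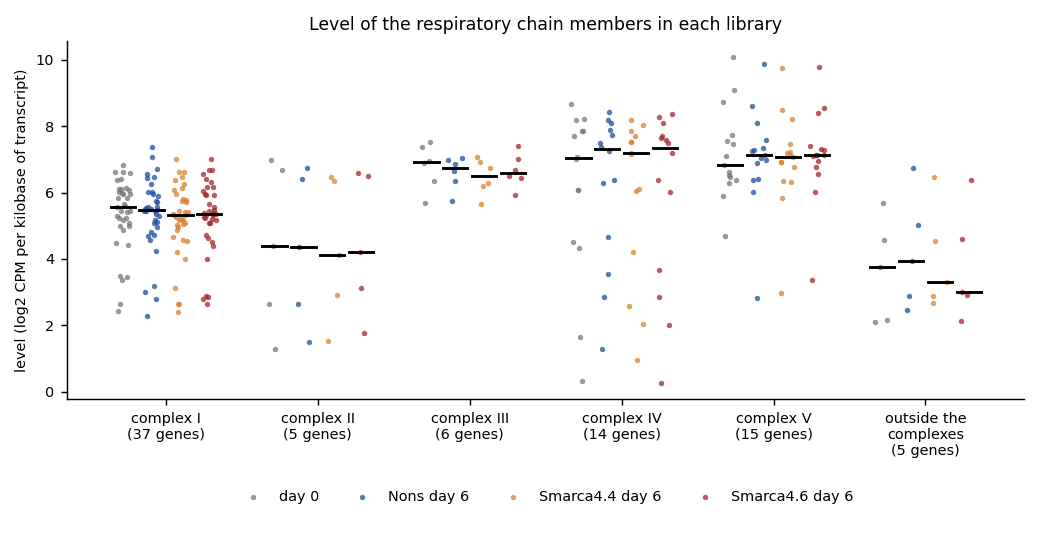
Level of each of the 82 members that passed the filter, in log2 CPM per kilobase of transcript (vertical axis), by complex and library. Points are genes and black bars are medians. The complex IV and V medians lie between 6.82 and 7.35 in all 4 libraries, and complex I lies between 5.32 and 5.57.

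Summed over all 85 members, the respiratory genes took 1.01%, 0.904%, 0.829% and 0.882% of reads. The sum was 10068, 9041, 8288 and 8817 CPM, lowest in Smarca4.4. Most of the difference between day 0 and Nons lay in complex V, whose sum was 5308 CPM at day 0 and 4357 CPM in Nons, and within it in Atp5a1 (1452 and 1039 CPM) and Atp5b (2074 and 1789 CPM). Complex I differed little, with 1978 CPM at day 0 and 1945 CPM in Nons, as did complex IV with 1463 and 1430 CPM. For Smarca4.4 the sum of each complex was the lowest of the 4 libraries. The 13 protein-coding genes of mitochondrial DNA summed to 20185 CPM at day 0 and to 10970, 12373 and 10325 CPM at day 6. These sums were led by mt-Co1, at 13.3 log2 CPM at day 0. The genes that follow it on the mitochondrial DNA were far lower at day 0. They were mt-Co2 (6.27), mt-Atp8 (4.14), mt-Atp6 (5.55), mt-Co3 (5.19), mt-Nd3 (1.03) and mt-Nd4l (2.24). The reason for this gap was not tested, and counts over the 13 genes weigh such rows equally. Every mitochondrial gene was lower in Nons than at day 0, by 0.16 to 1.71 on the log2 scale, with a median of -0.85, and the interval of mt-Nd3 alone included 0. Against Nons, 12 of the 13 were higher in Smarca4.4 (median 0.27) and 7 of the 13 in Smarca4.6 (median 0.01).

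**Figure D2:**
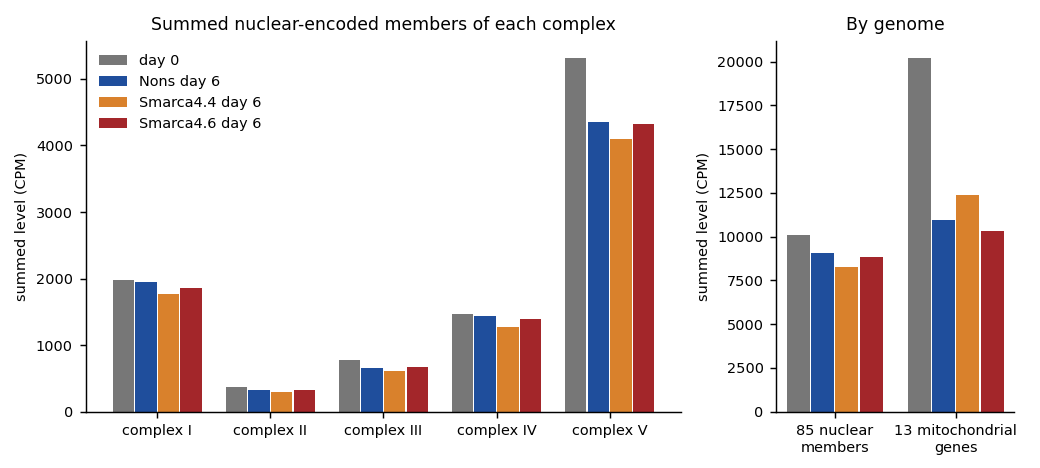
Summed level in CPM (vertical axes, from 0) of the nuclear members of each complex (left) and of all 85 members beside the 13 mitochondrial protein-coding genes (right), with 1 bar for each library. The mitochondrial sum is 20185 CPM at day 0 and at most 12373 CPM at day 6, while the nuclear sum runs from 8288 to 10068 CPM.

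From day 0 to Nons a smaller share of the members than of all genes passed 1.5-fold in either direction. At least 1.5-fold higher were 11 of 82 members (13.4%, against 28.4% of the 13264 genes tested), and at least 1.5-fold lower were 10 (12.2%, against 22.4% of those genes). The median difference was 0.01 over the members and 0.03 over all genes. By complex the medians were -0.05 for complex I, -0.01 for complex II, -0.02 for complex III, 0.19 for complex IV and -0.09 for complex V. Around these medians the single members ran from -1.88 (Atp5g1) to 2.53 (Cox4i2). Among genes with a mean log2 CPM of at least 3, the shares were 12.8% higher and 11.5% lower for 78 members, against 22.5% and 20.6% of 9619 genes.

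In complex I, 4 members were higher in Nons. Ndufa7 stood at 52.1, 88.0, 68.5 and 67.9 CPM, highest in Nons and lowest at day 0, a difference of 0.76 (0.65 to 0.86). Ndufa13, an accessory subunit, stood at 39.6, 66.0, 50.3 and 52.1 CPM, a difference of 0.74 (0.62 to 0.86), and its row overlaps those of Yjefn3 and Tssk6. Ndufab1, the mitochondrial acyl carrier protein, stood at 39.2, 65.8, 55.3 and 56.2 CPM, again 0.74 (0.63 to 0.86). Ndufc2, an accessory subunit, was 0.60 higher. Lower in Nons were Ndufaf4, Ndufa1 and Ndufb10. Ndufaf4, an assembly factor, stood at 37.5, 17.7, 22.6 and 25.2 CPM, lowest in Nons, a difference of -1.08 (-1.23 to -0.93). Ndufa1, an X-linked accessory subunit, stood at 47.3, 27.1, 29.4 and 27.9 CPM and differed by -0.80 (-0.93 to -0.68). The other X-linked members, Cox7b and Ndufb11, differed by -0.38 and 0.04. Among the 7 core subunits of complex I, which carry the flavin and the iron-sulfur clusters, none passed 1.5-fold and the differences ran from -0.30 (Ndufs7) to 0.13 (Ndufs8).

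In complex II, Sdhd stood at 157, 104, 100.4 and 110 CPM, and the difference from day 0 to Nons was -0.59 (-0.65 to -0.52), while Sdhb and Sdhc lay within 0.07 of 0. In complex III, Uqcr10, a small subunit, was the only one of the 6 members past 1.5-fold. It stood at 71.7, 43.3, 33.9 and 37.7 CPM, a difference of -0.73 (-0.83 to -0.63). Of the rows left out on chromosome 13, Sdha (-0.87), Uqcrb (-0.94) and Ndufaf2 (-0.87) were also at least 1.5-fold lower in Nons. With the chromosome 13 rows added, 13 genes were lower and 11 higher. In complex IV, Cox5a, a subunit on the matrix side, stood at 262, 136, 118 and 116 CPM, so that day 0 was well above all 3 day 6 libraries, and the difference was -0.95 (-1.001 to -0.89). By contrast 7 of the 10 complex IV members without tissue-restricted use were above 0, up to 0.39 for Cox6c. In complex V, Atp5e, the epsilon subunit of the F1 head, stood at 41.0, 80.6, 62.4 and 66.7 CPM and was 0.97 (0.86 to 1.09) higher in Nons, and Atp5l, subunit g, was 0.60 higher. The other 4 subunits of the head did not pass 1.5-fold, the lowest of them being Atp5a1 at -0.48 (-0.50 to -0.46). Outside the complexes, Cox7a2l, which joins complexes III and IV into supercomplexes, stood at 58.3, 121, 99.5 and 93.6 CPM and was 1.06 (0.96 to 1.15) higher in Nons. Atp5sl, known in newer annotation as Dmac2, was 0.80 higher, and Cox4nb was 1.248 higher. Although Atp5sl is required for complex I assembly, it was counted neither in complex I nor among the assembly factors.

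**Figure D3:**
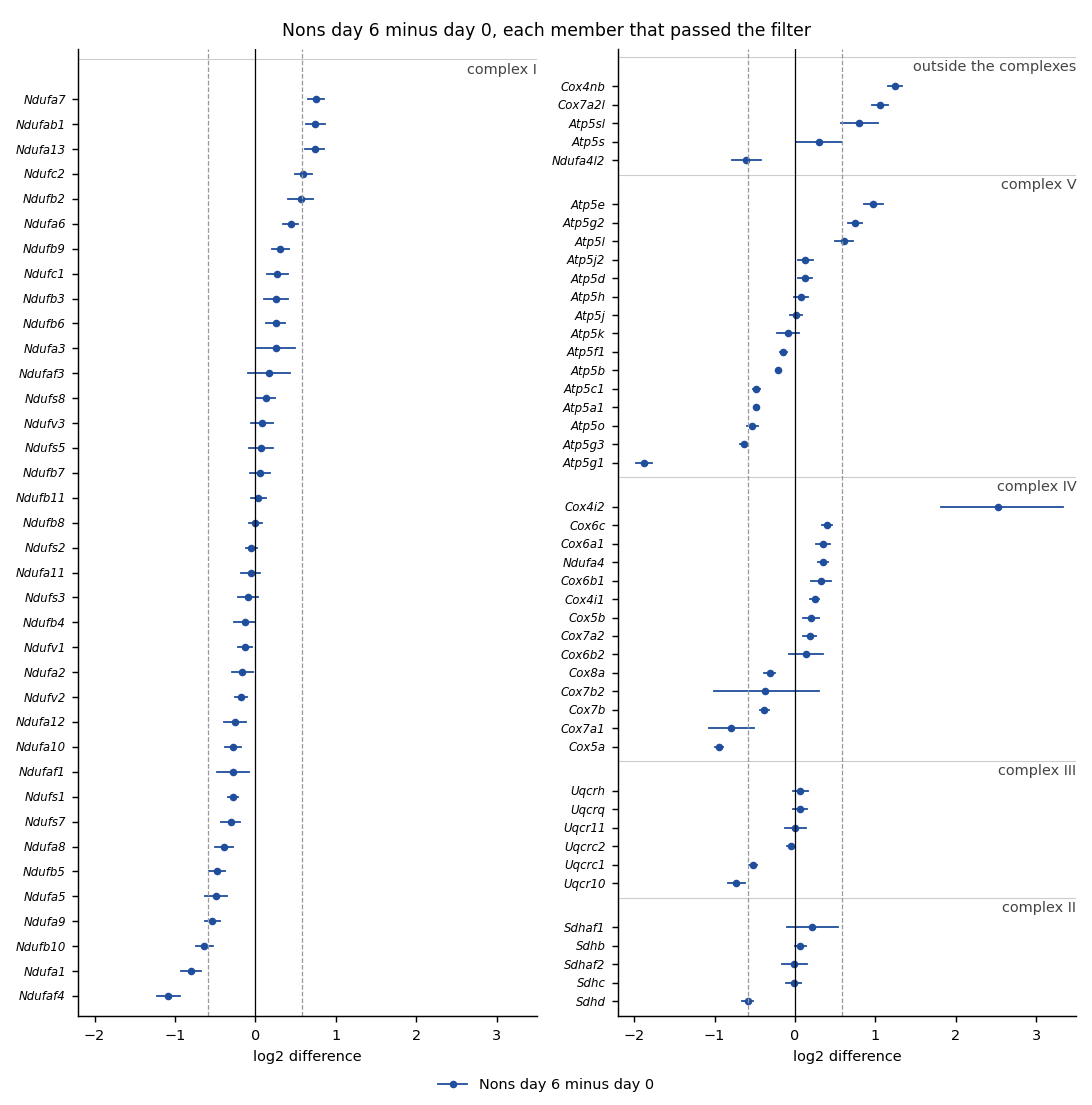
Difference between Nons day 6 and day 0 in log2 CPM (horizontal axis) for each of the 82 members, ordered within each complex. Bars are 95% counting intervals and dashed lines mark 1.5-fold. Most members lie between the dashed lines, with Atp5g1 at -1.88 and Cox4i2 at 2.53 as the extremes.

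The 3 genes for the c ring of the ATP synthase differed in direction between day 0 and Nons. Atp5g1, Atp5g2 and Atp5g3 encode the same mature c subunit behind different import signals. Their promoters are shown because the product is shared while the genes differed. The windows run from 250 bases before to 50 bases after the RefSeq start on GRCm38.p6, at chr11:96075582-96075881, minus strand for Atp5g1, chr15:102670998-102671297, minus strand for Atp5g2 (beyond the 5′ end of its row in the table) and chr2:73911277-73911576, minus strand for Atp5g3. Capitals mark an NRF1 core (CGCATGCGC on either strand), which is present in the Atp5g2 window on both strands with 1 base of offset. Neither this core, nor the ETS letters CCGGAAG, nor the YY1 letters AAGATGGC were found in the other 2 windows.
Atp5g1: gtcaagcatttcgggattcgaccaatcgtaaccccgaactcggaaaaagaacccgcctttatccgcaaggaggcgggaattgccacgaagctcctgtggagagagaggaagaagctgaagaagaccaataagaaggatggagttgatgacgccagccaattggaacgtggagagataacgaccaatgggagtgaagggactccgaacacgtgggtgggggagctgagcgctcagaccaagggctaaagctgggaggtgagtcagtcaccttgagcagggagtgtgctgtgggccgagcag
Atp5g2: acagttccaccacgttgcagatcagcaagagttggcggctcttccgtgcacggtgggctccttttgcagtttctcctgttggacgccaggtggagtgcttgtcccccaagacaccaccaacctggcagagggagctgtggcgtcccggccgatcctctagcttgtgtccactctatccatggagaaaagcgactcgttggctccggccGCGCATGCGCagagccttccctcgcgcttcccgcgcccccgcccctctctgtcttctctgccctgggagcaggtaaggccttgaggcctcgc
Atp5g3: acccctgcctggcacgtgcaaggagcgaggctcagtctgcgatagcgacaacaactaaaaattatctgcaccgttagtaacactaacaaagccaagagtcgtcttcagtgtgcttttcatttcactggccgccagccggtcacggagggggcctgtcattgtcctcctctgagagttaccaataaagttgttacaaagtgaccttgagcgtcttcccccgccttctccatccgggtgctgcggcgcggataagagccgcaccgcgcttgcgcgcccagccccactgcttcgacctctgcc

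Atp5g1 stood at 123, 33.4, 36.9 and 49.0 CPM, so that day 0 was far above all day 6 libraries, and the difference from day 0 to Nons was -1.88 (-1.97 to -1.78), the lowest of any member that passed the filter. Atp5g3 stood at 309, 199, 213 and 244 CPM and differed by -0.63 (-0.68 to -0.59). Atp5g2 differed in the other direction, with 68.2, 114, 98.2 and 101 CPM and a difference of 0.74 (0.65 to 0.83). Of the reads of the 3 genes, Atp5g1 held 24.6% at day 0 and 9.64% in Nons, Atp5g2 13.6% and 32.9%, and Atp5g3 61.8% and 57.5%. The ratio of Atp5g1 to Atp5g2 differed by -2.62 (-2.75 to -2.49) on the log2 scale. With both hairpins it was higher than in Nons, by 0.36 (0.24 to 0.47) and 0.73 (0.61 to 0.84) in Smarca4.4 and Smarca4.6, and the Atp5g1 share of reads was 10.6% and 12.4%. Per kilobase, the Atp5g1 share in Nons was 1.62% by its longest annotated transcript (4715 bases) and 9.44% by its shortest (596 bases), the lowest of the 3 genes by either. At day 0 it was 4.77% by the longest and 26.0% by the shortest, and only by the shortest was it above Atp5g2 (19.5%). Together the 3 genes summed to 500.2, 347, 348 and 394 CPM. How the authors treated reads that match more than 1 paralogue is not given in the sources used here.

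The second genes of complex IV subunits were minor in every library, and those that passed the filter differed between day 0 and Nons in both directions. Cox4i2, the lung form of subunit 4, rests on few reads at day 0, with 17, 241, 141 and 109 reads or 0.914, 5.27, 2.99 and 2.99 CPM. Its difference from day 0 to Nons was 2.53 (1.82 to 3.33), the highest of any member, and its share of subunit 4 transcripts per kilobase was 0.426%, 2.04%, 1.37% and 1.23%. Cox7a1, the heart and muscle form of subunit 7a, went the other way with 9.79, 5.64, 2.93 and 3.51 CPM, highest at day 0 and lowest with the hairpins, and a share of 13.2%, 7.15%, 3.93% and 3.67% beside Cox7a2. Cox6b2, the testis form of subunit 6b, held 25.4%, 23.1%, 21.2% and 13.2% of its pair with Cox6b1, the largest share of any second gene. Cox7b2, the testis form of subunit 7b, held 1.35%, 1.36%, 1.05% and 0.610% beside Cox7b, on 32, 61, 50 and 24 reads. Cox6a2, the heart and muscle form of subunit 6a, had 10 reads at day 0 and 0, 0 and 1 at day 6, in a row that overlaps Itgad. With the floor of 3 reads taken in Nons, Cox6a2 was 8.20-fold lower there than at day 0, without allowance for counting error. Its counting interval lay at -2.46 or below on the log2 scale. Cox8b, the heart and muscle form of subunit 8, had 0 reads in all 4 libraries, and Cox8c, its testis form, had 0, 0, 3 and 3, at or below the floor. Ndufa4l2, a paralogue of Ndufa4 known to be induced by low oxygen, stood at 22.0, 14.4, 9.16 and 7.51 CPM.

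The promoters of Cox7a1 and Cox6b2, which were lower with both hairpins, are shown beside those of their common partners. On GRCm38.p6 the windows lie at chr7:30183921-30184220, plus strand for Cox7a1, chr9:79759804-79760103, minus strand for Cox7a2, chr7:4753045-4753344, minus strand for Cox6b2 and chr7:30626065-30626364, minus strand for Cox6b1. Capitals mark the ETS letters CCGGAAG on the reverse strand of Cox6b1, and none of the 3 motifs was found in the other windows.
Cox7a1: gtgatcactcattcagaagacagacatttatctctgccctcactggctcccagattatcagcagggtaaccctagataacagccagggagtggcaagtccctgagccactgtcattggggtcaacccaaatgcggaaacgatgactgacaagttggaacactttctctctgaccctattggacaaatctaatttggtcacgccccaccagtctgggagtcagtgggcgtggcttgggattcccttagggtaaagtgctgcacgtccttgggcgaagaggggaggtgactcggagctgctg
Cox7a2: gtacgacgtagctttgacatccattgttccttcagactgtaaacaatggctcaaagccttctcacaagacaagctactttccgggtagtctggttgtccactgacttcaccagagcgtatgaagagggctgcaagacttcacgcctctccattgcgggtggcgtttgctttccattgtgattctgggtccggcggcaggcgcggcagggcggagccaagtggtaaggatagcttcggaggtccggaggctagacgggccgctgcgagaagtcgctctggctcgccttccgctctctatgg
Cox6b2: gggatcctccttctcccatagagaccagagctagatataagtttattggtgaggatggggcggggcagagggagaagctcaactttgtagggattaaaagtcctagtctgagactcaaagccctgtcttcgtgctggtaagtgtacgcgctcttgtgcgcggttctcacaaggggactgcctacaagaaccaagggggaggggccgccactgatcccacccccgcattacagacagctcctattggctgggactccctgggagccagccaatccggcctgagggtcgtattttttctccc
Cox6b1: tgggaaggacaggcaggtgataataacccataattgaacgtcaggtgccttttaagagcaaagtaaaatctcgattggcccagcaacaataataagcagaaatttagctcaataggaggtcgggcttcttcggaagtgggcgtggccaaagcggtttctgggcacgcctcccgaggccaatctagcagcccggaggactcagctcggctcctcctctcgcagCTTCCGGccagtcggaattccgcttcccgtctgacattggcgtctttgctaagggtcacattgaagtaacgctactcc

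The ratio of Cox7a1 to Cox7a2 changed by -0.98 (-1.26 to -0.69) on the log2 scale from day 0 to Nons, and again by -0.91 (-1.21 to -0.61) and -1.01 (-1.32 to -0.70) in Smarca4.4 and Smarca4.6 against Nons. The ratio of Cox4i2 to Cox4i1 changed by 2.28 (1.57 to 2.995) from day 0 to Nons, then by -0.59 (-0.89 to -0.28) and -0.74 (-1.07 to -0.41) in Smarca4.4 and Smarca4.6. The Cox6b2 to Cox6b1 ratio separated the hairpins, with a change against Nons of -0.16 (-0.34 to 0.03) and -0.98 (-1.20 to -0.75) in Smarca4.4 and Smarca4.6. The ratio of Ndufa4l2 to Ndufa4 changed by -0.95, -0.49 and -1.02 in the same 3 comparisons. Of 15 striated muscle markers, 5 passed the filter, and 3 of them were at least 1.5-fold higher in Nons than at day 0 and 2 lower. The sum over the list was 27.2, 112, 53.2 and 33.7 CPM, led at day 6 by Acta1, a skeletal actin, which had 0 reads at day 0 and log2 CPM values of 6.53, 5.16 and 4.19 at day 6. Myod1, Myog and Ckm had at most 9 reads in any library. The germ cell markers, all 7 of which passed the filter (3 higher in Nons and 2 lower), summed to 909, 138, 156 and 114 CPM, with Dazl at 9.60, 2.98, 3.27 and 2.35 log2 CPM. Whether muscle or germ cells were present was not established from these markers, and any part of such cells in the isoform values was not tested.

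**Figure D4:**
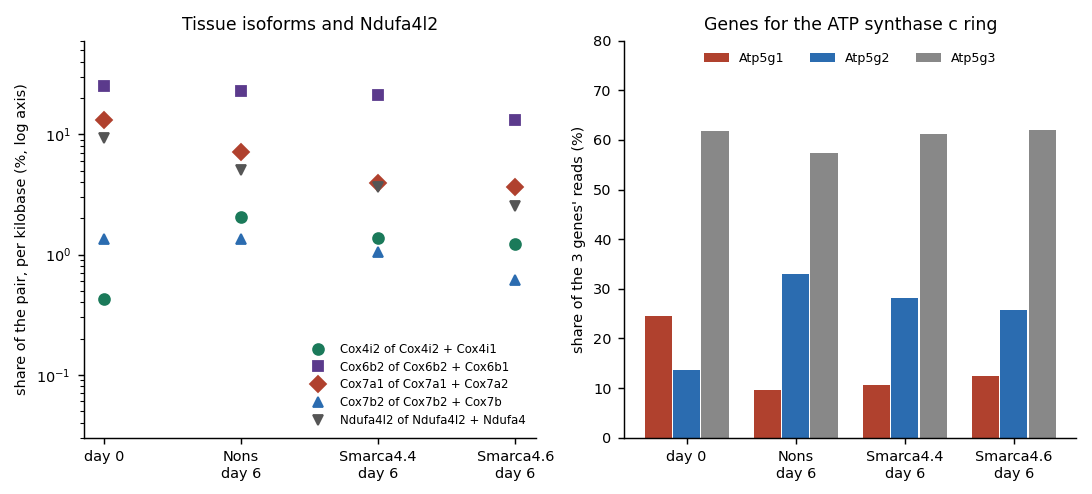
Left, share in percent (log axis) of each second gene in the sum with its common partner, per kilobase of transcript, in each library. Right, share in percent of the reads of the 3 c ring genes (bars from 0). Cox7a1 runs from 13.2% at day 0 to 3.67% in Smarca4.6, and Atp5g2 from 13.6% at day 0 to 32.9% in Nons.

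With the Smarca4 hairpins most members were slightly below Nons. Both comparisons share the Nons library, so that any deviation of that library enters both. In Smarca4.4, 67 of 82 members were below Nons and the median difference was -0.13, against 0.04 over all genes. The members counted as lower are those at or under 80% of the Nons level, and those counted as higher are at least 25% above it, the same factor in both directions. Lower by this measure were 16 members (19.5%, against 9.51% of genes tested) and higher was 1, Ndufaf4 (1.22%, against 12.9%). In Smarca4.6, 49 of 82 were below Nons and the median was -0.05, against 0.06 over all genes, with 12 members lower (14.6%, against 11.8%) and 6 higher (7.32%, against 18.8%). The lower share in Smarca4.6 was near that of all genes. Complex IV had the lowest median with both hairpins, -0.24 in Smarca4.4 and -0.19 in Smarca4.6, and the medians of complexes II, III and V were below 0 in Smarca4.4 (-0.05, -0.11 and -0.11) and above 0 in Smarca4.6 (0.08, 0.07 and 0.06). With each difference centred on the median of autosomal genes, the Smarca4.6 medians of complexes II, III and V were 0.019, 0.0071 and 0.0017. Complex I stood at -0.14 and -0.09. Without the tissue-restricted genes the complex IV medians were -0.21 and -0.05. In Smarca4.6 complex IV was then no longer the lowest, since complex I lay below it. The complex II median turned to -0.15 in Smarca4.6 without its 2 assembly factors.

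Transcript length ran alongside these differences. Of the 82 members, 41 were no longer than 944.5 bases. Among 369 genes of all kinds within that length and with a mean log2 CPM of at least 3, 18.4% were lower by the same factor in Smarca4.4 and 2.44% higher, beside 21.1% and 0% of 38 members. The same genes had a median of -0.12 in Smarca4.4, beside -0.17 for the members. For genes above 944.5 bases no such limit on level was set. Of these, 12.2% of 41 members were lower in Smarca4.4 and 2.44% higher, against 8.59% and 13.1% of 11884 genes. Their medians were -0.11 and 0.05. Within the limit on level, the short genes in Smarca4.6 had 12.7% lower and 9.49% higher, beside 10.5% and 5.26% of members. From day 0 to Nons, within the same limit, the short genes of all kinds had a median of 0.26 and the members 0.07. Without the limit on level, 26.8% of 41 short members and 21.1% of 512 short genes were lower in Smarca4.4. The short genes of all kinds include the members, and the part of length in the values was not tested further.

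Past this factor with both hairpins were 9 members lower (11.0%, against 5.41% of genes tested) and 1 higher (1.22%, against 8.01%), and none lay past it in opposite directions. The 9 were Ndufa13, Ndufa6, Ndufa7, Cox4i2, Cox6b2, Cox7a1, Cox7b2, Cox4nb and Ndufa4l2. They hold all 4 second genes of complex IV that passed the filter and Ndufa4l2, while none of their common partners was lower by that factor. Cox7a1 differed from Nons by -0.95 (-1.25 to -0.64) and -0.68 (-1.002 to -0.37) in Smarca4.4 and Smarca4.6, and Cox4i2 by -0.82 with both (-1.13 to -0.51, and -1.16 to -0.49). Ndufa4l2 differed by -0.66 (-0.83 to -0.48) and -0.94 (-1.15 to -0.74), and its row overlaps Shmt2 on the opposite strand. Cox6b2 differed by -0.44 (-0.61 to -0.27) and -0.98 (-1.18 to -0.77). Cox7b2 differed by -0.33 and -1.02, and the first interval (-0.90 to 0.23) includes 0. Among the common members, Ndufa6, an accessory subunit with 58.4, 79.2, 57.7 and 60.1 CPM, differed by -0.46 and -0.40, Ndufa7 by -0.36 and -0.37, and Ndufa13 by -0.39 and -0.34. In these 3 genes Nons was the highest of the 4 libraries and the hairpin libraries lay between 50.3 and 68.5 CPM. Cox4nb, with 67.2, 159.6, 114 and 121 CPM, differed by -0.49 and -0.40. Ndufaf4, the exception, was 0.35 (0.22 to 0.48) and 0.51 (0.37 to 0.65) above Nons, though still below day 0.

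**Figure D5:**
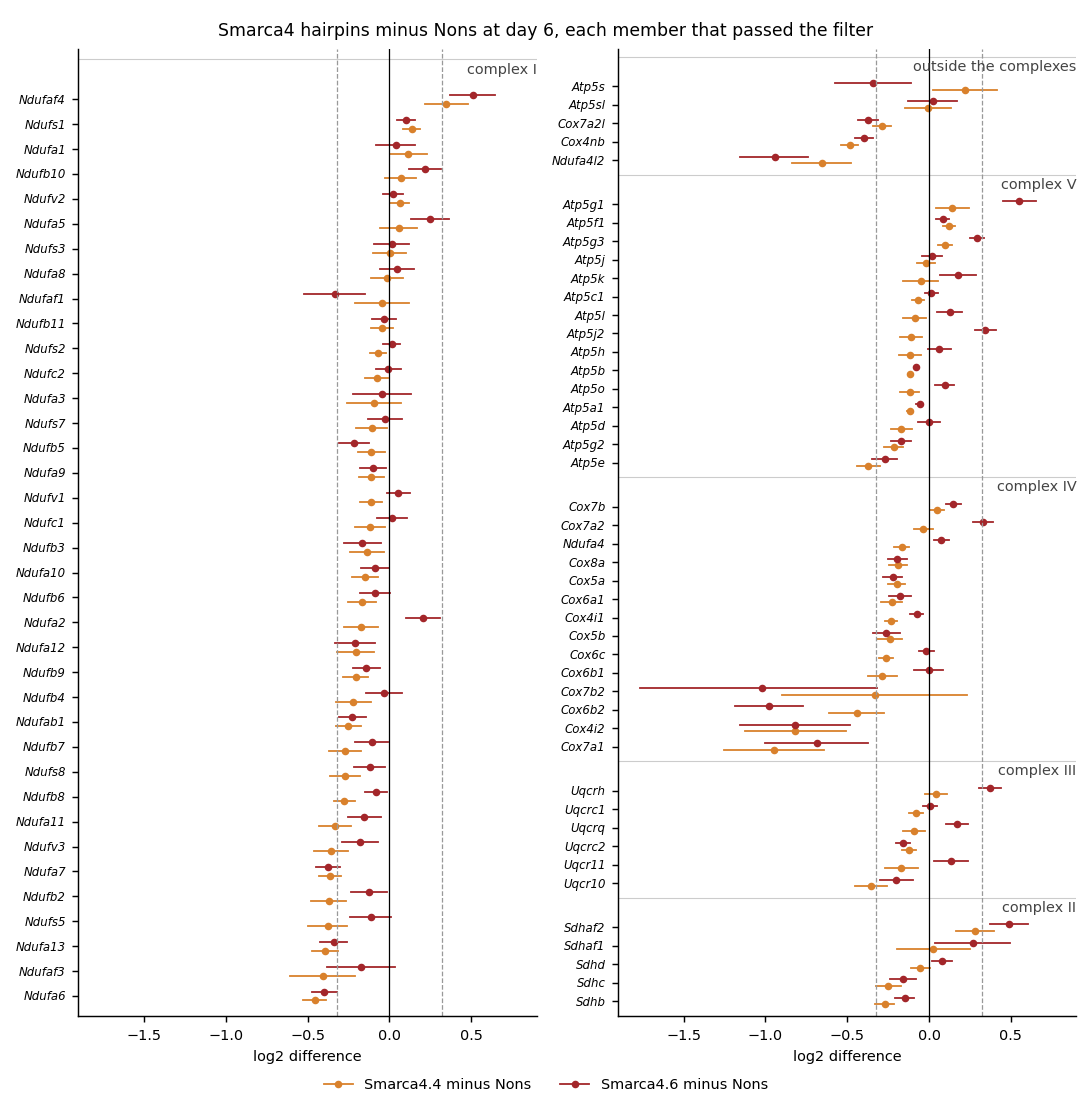
Difference from Nons in log2 CPM (horizontal axis) of Smarca4.4 (orange) and Smarca4.6 (red) for each of the 82 members, by complex. Bars are 95% counting intervals and dashed lines mark 25% above Nons and 80% of Nons. Cox7a1, Cox4i2 and Ndufa4l2 lie farthest below 0 in Smarca4.4, with Cox7b2 and Cox6b2 joining them in Smarca4.6, and Ndufaf4 is more than 25% above Nons with both.

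The hairpin libraries also differed from each other. Against Smarca4.4, 63 of 82 members were higher in Smarca4.6 (median 0.08, against 0.03 over all genes). Higher by at least 25% were 5 (6.10%, against 9.38% of genes tested), and lower by the same factor were 3 (3.66%, against 8.46%). Both shares were smaller than those over all genes. The 5 were Ndufa2, Uqcrh, Cox7a2, Atp5j2 and Atp5g1, and the 3 were Cox7b2, Cox6b2 and Atp5s. Cox7a2 stood at 87.7, 99.5, 97.2 and 125 CPM and Uqcrh at 68.2, 71.4, 73.5 and 92.4 CPM, so that in both genes Smarca4.6 was above the other 3 libraries. Atp5j2, subunit f of the ATP synthase, showed the same order of libraries at its top, with 74.8, 81.9, 75.9 and 104 CPM. Sdhaf2, which attaches the flavin of complex II, stood at 24.4, 24.3, 29.5 and 34.0 CPM, and was 0.28 (0.17 to 0.40) and 0.49 (0.37 to 0.61) above Nons with the hairpins. Among the other assembly factors, Ndufaf1 differed from Nons by -0.05 and -0.33, Ndufaf3 by -0.41 and -0.17, and Sdhaf1 by 0.03 and 0.27.

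Genes of the pathway outside the name rule were read from lists of their own. Each count in this paragraph and the next stands beside the shares over all genes given above. These were 28.4% higher and 22.4% lower at day 6, 12.9% and 9.51% in Smarca4.4, and 18.8% and 11.8% in Smarca4.6. Nothing is read from a count near those shares. Of 8 electron carriers and feeders that passed the filter, Etfdh, which feeds electrons from fatty acid oxidation to ubiquinone, was at least 1.5-fold higher in Nons than at day 0 and Etfb, part of its electron donor, lower. Cycs, which encodes cytochrome c, stood at 6.64, 6.68, 6.83 and 7.08 log2 CPM, 0.40 above Nons in Smarca4.6, where Prodh was also more than 25% higher. None of the 8 was past this factor in Smarca4.4. Of 7 complex I assembly genes outside the name rule, 1 was higher at day 6 (Nubpl, by 1.14) and none passed the fold in Smarca4.4. In Smarca4.6, 2 were higher (Acad9 and Lyrm2) and 1 was lower (Nubpl, at -0.46). Of 3 complex III assembly genes, 1 was lower at day 6 (Ttc19) and none passed the fold with a hairpin. Of 12 complex IV assembly genes, 3 were higher at day 6 (Surf1, Cmc1 and Cox16), 2 were lower (Sco1 and Cox15), and none passed the fold with either hairpin. A list of 5 further ATP synthase genes held its assembly factors, its inhibitor and Usmg5. Atpif1, the inhibitor of the reverse reaction, stood at 6.35, 7.06, 6.72 and 6.74 log2 CPM. At day 6 Usmg5 was 0.90 higher and the assembly factor Atpaf1 differed by -0.93.

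Among the transcriptional regulators of respiratory genes, 10 passed the filter. Of these, 4 were at least 1.5-fold lower in Nons than at day 0 and none was higher by as much (22.4% and 28.4% of all genes), with a median of -0.46. The 4 were Esrrb, which is also a pluripotency marker, the coactivators Ppargc1b and Pprc1, and Gabpa, an ETS factor whose row overlaps that of the member Atp5j. Ppargc1b stood at 3.79, 1.46, 1.26 and 1.44 log2 CPM and Gabpa at 8.05, 7.09, 7.25 and 7.25. Nrf1 differed by -0.36 and Tfam, the packaging factor of mitochondrial DNA, by 0.01. With the hairpins, Tfb2m, a mitochondrial transcription factor, was 0.47 and 0.66 above Nons, Pprc1 was more than 25% higher in Smarca4.6, and Esrra was -0.37 from Nons in Smarca4.4. Of 12 oxygen response genes, 4 were higher at day 6 (Slc2a1, Adm, Egln1 and Ddit4) and 3 were lower (P4ha1, Vegfa and Epas1). Against Nons, Adm and Egln3 were lower with both hairpins (-0.47 and -1.16 for Adm, -0.46 and -0.82 for Egln3), Bnip3 and Vegfa in Smarca4.6, and Epas1 and Ankrd37 were higher with 1 hairpin each.

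A promoter window was found in RefSeq for 70 of the 85 members, in 76 windows of 300 bases. The NRF1 core was present in 9 of these windows (11.8%, against 1.75% of 32851 windows of all genes), the ETS letters CCGGAAG in 19 (25%, against 8.86%) and the YY1 letters in 10 (13.2%, against 2.75%), each searched on both strands. The longer ETS letters CCGGAAGT, which hold the shorter, were found in 5 (6.58%, against 3.89%). The median GC content was 58.5% over member windows and 52.7% over all windows, and its part in these shares was not tested. The 9 genes with the NRF1 core were Ndufa11, Ndufa8, Ndufaf4, Uqcr11, Uqcrc1, Cox6a1, Atp5g2, Atp5k and Atp5l. These are matches of letters and not measured binding.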

How the data were processed

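Paired-end RNA-seq libraries (TruSeq kit) were trimmed with trim_galore, aligned with hisat2 or tophat to mm10 with strain polymorphisms masked, and quantified in SeqMonk by the authors. The strand setting is not given in the sources used here, and rows of 20 members overlap other genes. The deposited values are log2 CPM, scaled by the authors to the library total, with 0 reads written as 0.9 of 1 read. Whole reads were recovered from this step (within 0.05 of a read) for at least 99.92% of values, and recovered totals gave the depth and the floor of 3 reads. Intervals of differences are exact (Clopper-Pearson), those of isoform ratios come from the 4 read counts by the delta method, and both describe counting error alone, reads not being independent molecules.

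Differences were taken between deposited values, for genes with a mean log2 CPM of at least 0. Members were counted at 1.5-fold (Nons against day 0) or at 25% above and 80% of the reference level (hairpins), beside all genes. Levels per kilobase used the longest coding transcript in GENCODE M21, in which all 85 members were found, and promoters came from RefSeq on GRCm38.p6. Members, roles and gene lists were chosen with earlier results of these data known. Genes named were Smarca4, the isoform pairs, the 2 highest members per kilobase and the largest rise and fall of each complex, all members past 1.5-fold at day 6, those past the hairpin limit with both hairpins, the largest rises and falls with each hairpin, and the assembly factors; other names were chosen after their values were seen. The comparison of the hairpins with each other, the shortest c ring transcripts, the removal of Cox4nb and the split by length were added after the data were seen. Alternatives were a stricter filter (3), none, centring on the median autosomal difference, a pseudocount of 1 CPM, chromosome 13 rows added, structural subunits only and ratios without length correction. The computations were tested on simulated reads. Scripts ran under Python 3.11.15, with pandas 2.3.3, numpy 2.4.6 and scipy 1.17.1, and figures were drawn with matplotlib 3.10.9.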

Additional observations from a re-analysis of the deposited data

How the results depend on the processing

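No paired analysis was possible because the 4 libraries carry the same replicate number and there is only 1 per group. Of 144 recomputed values of the counts, the medians and the isoform ratio changes, 132 stayed within 1.5 times (counts) or within an interval. For ratio changes this was their counting interval. For medians it ran from the median of the members' lower bounds to the median of their upper bounds. That range is not an interval of the median itself, so staying within it is a loose criterion. Several of the 132 values still shifted. With centring the median of all members at day 6 was -0.04, beside 0.01, and in Smarca4.6 it was -0.11, beside -0.05. The higher members in Smarca4.6 were 9 with no filter. The medians of complexes III and V in Smarca4.6 were 0.0071 and 0.0017 with centring. Members at least 25% higher in Smarca4.4, 1 as reported, were 2 with no filter and 0 with centring or with structural subunits only. In Smarca4.6 the 6 higher members became 3 with centring, and the 12 lower members became 7 with structural subunits only. The complex II median in Smarca4.4 moved from -0.05 to -0.15 with the stricter filter and to -0.25 with structural subunits only. In Smarca4.6 it moved from 0.08 to 0.019 with centring and turned to -0.035 with the stricter filter and -0.15 with structural subunits only, where fewer genes entered. The complex IV median in Smarca4.6 moved from -0.19 to -0.075 both with the stricter filter and with no filter, since either changes which genes enter. The ratio change of Cox4i2 to Cox4i1 from day 0 to Nons was 1.47 with a pseudocount of 1 CPM. Of 254 recomputed single-gene and within-library values, 27 moved beyond their interval, 21 of them with centring, which shifts all differences by at most 0.06. Depth limits Cox4i2, Cox7b2, Cox6a2 and Cox8c, which rest on at most 241 reads in a library.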
